A study of Mus musculus with 20 samples.

Results

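Of 10986 autosomal protein-coding genes with a mean of at least 5 counts per 1000000 counted reads (CPM, raw counts over the library total) in the late cerebellar libraries, 156 were higher in every one of the 10 SCA7 mice than in every one of the 4 WT mice, by a log2 ratio of the means of at least 0.3. These 156 genes are 1.42% of the 10986, and genes on X and Y were left out. They were selected on exactly these values, so the SCA7 and WT levels given for them describe the selection, and no test of SCA7 against WT is given. By the mirrored rule, 245 genes (2.23%) were lower in every SCA7 mouse. Without the limit on the ratio, 1030 genes (9.38%) were higher in every SCA7 mouse.

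The late libraries came from SCA7 mice, which carry 1 knock-in Atxn7 allele with 140 glutamine codons beside a normal mouse allele with 5, and from WT mice, all on C57BL/6J and labelled 25 weeks. Of the SCA7 mice, 5 had received AAV-shA4 and 5 AAV-shSCR (a scrambled control), in both cases an AAV PHP.eB vector injected retro-orbitally into young mice, with an H1 promoter for the shRNA and a CMV-driven eGFP. The shA4 RNA targets the expanded CAG repeat. The 4 late WT mice were untreated, which in this study means an injection of saline, so the SCA7 genotype and the AAV cannot be told apart in the comparison that chose the genes. The early libraries, labelled 9 weeks, came from WT mice alone, 3 of them treated with AAV-shA4 and 3 untreated. The paper gives times after the injection for these libraries, so the labels need not be ages. Each library is the cerebellum of 1 mouse. By the study's own description, the late mice were males and the vector reaches most Purkinje cells (PCs) but few granule cells.

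SCA7 is caused by a CAG expansion in the gene of ataxin-7, a subunit of the SAGA co-activator complex, and in the cerebellum it is known above all for the dysfunction of PCs. Genes that rise in such a tissue can come from neurons, glia, vessels or immune cells. Interferons, for example, act through factors such as Irf9 and Irf7 on a large set of genes with a shared promoter element, among them the MHC class I molecules that present peptides on the cell surface.

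Library totals were 31465586 to 44708557 counts in the SCA7 mice, 39036803 to 54570503 in the late WT mice and 36245752 to 49212593 in the early mice, where the depth of the treated and untreated mice did not overlap. Scaling by TMM, edgeR's trimmed mean of M-values, gave the SCA7 libraries factors of 1.004 to 1.016 and the late WT libraries 0.971 to 0.984. Accordingly the median log2 ratio of SCA7 to WT over the 10986 genes was 0.05 on library totals and 0.00 with TMM, and 98 of the 156 genes met the rule with TMM. Atxn7 itself (chr14:13961440-14107302, GRCm38) was at 44.8 to 51.6 CPM with shA4 and at 45.8 to 53.8 CPM with shSCR, and its difference of -0.04 ± 0.05 (log2, SE) did not pass edgeR's quasi-likelihood test (adjusted p = 0.842). PC markers went the other way from the members. None of 39 PC genes was a member, 30 of them were lower in every SCA7 mouse by the mirrored rule, and their summed level was 13550 to 15288 CPM with shA4, 13295 to 14582 with shSCR and 18195 to 20035 in late WT mice. In bulk tissue, fewer or more cells of a type and less or more RNA per cell cannot be told apart.

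The members' log2 ratios of SCA7 to WT ran from 0.30 to 1.09 with a median of 0.41, a 1.32-fold difference. Only 29 members reached 1.5-fold, and 2, Kcnb2 and Irf7, reached 2-fold. The lowest SCA7 mouse exceeded the highest WT mouse by a median factor of 1.09 and by at most 1.43. The SD of log2 CPM had a median of 0.11 over the 10 SCA7 mice and 0.10 over the 4 WT mice. At the edge of the selection, Galnt4, Rsrp1 and Cblb entered at 0.30, while Rest (0.299), Satb1 (0.299) and Inpp4b (0.298) met every other condition and stayed outside. Each member had at least 116 counts in every late library. CPM values are not divided by transcript length, so they order the mice for a gene and not the genes.

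**Figure D1:**
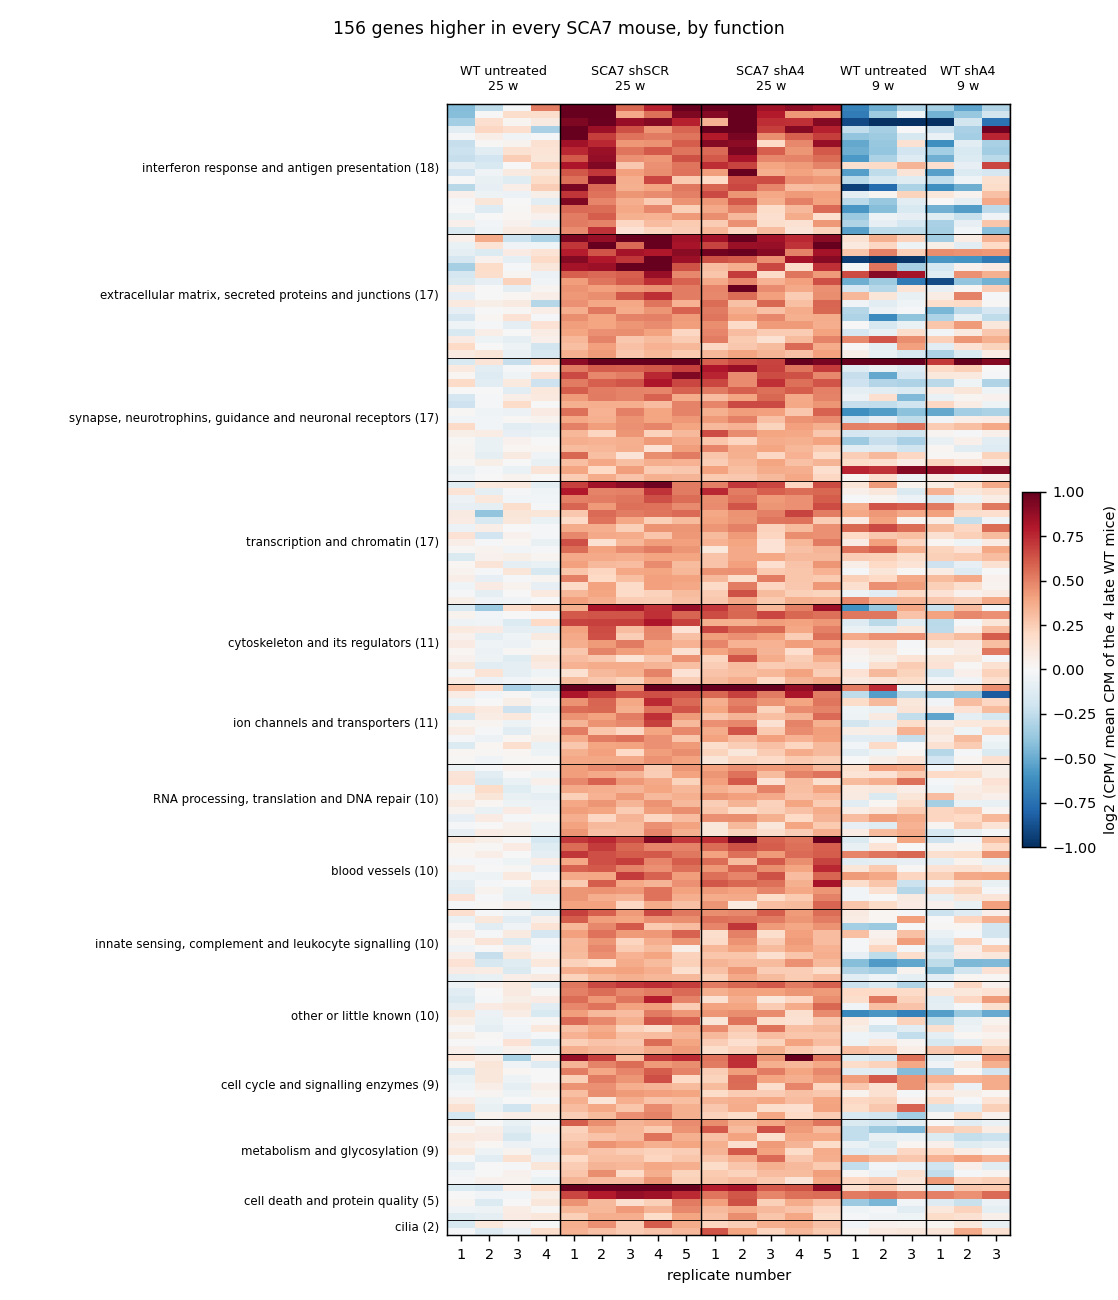
Heat map of the 156 genes (rows, grouped by function, with the number of genes in brackets) in the 20 mice (columns). Colour is log2 of the CPM over the mean CPM of the 4 late WT mice, with values past 1 in either direction drawn in the end colour. The 10 SCA7 columns are red throughout because the genes were selected on them, while the early WT columns hold both red and blue rows.

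The largest group by function, assigned by hand once the members were known, was the interferon response and antigen presentation, with 18 members whose log2 ratios ran from 0.31 to 1.06 with a median of 0.56. The promoters of 6 of them are shown first, because the core of an interferon element can be read in those 6. RefSeq promoter windows (GRCm38.p6, 250 bases before to 50 after the transcription start) were matched by symbol for 115 of the 156 members and for 15 of these 18. The core of the interferon-stimulated response element, GAAANNGAA or TTCNNTTTC on the other strand, was found in 6 of the 15 (40%), in 15 of the 115 members (13.04%), in 8.32% of the 8669 genes matched among the 10986, and in 9.76% of all 27025 genes with a window. The stretch around each match is printed 5′ to 3′ on the gene's strand, with the matches in capitals and at most 30 bases past the start.
B2m (chr2:122147508-122147596, plus strand): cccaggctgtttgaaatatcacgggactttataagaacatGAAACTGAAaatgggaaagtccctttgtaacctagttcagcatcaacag
Ifi203 (chr1:173942479-173942567, minus strand): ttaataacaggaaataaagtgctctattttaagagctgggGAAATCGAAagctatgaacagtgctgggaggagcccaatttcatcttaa
Irgm1 (chr11:48871396-48871490, minus strand): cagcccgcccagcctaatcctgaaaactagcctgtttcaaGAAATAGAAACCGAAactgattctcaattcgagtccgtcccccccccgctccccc
Ifitm3 (chr7:141010715-141010782, minus strand): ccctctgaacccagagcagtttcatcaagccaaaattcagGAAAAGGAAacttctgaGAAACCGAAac
Eif2ak2 (chr17:78882543-78882594, minus strand): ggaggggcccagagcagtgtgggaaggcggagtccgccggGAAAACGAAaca
Psme1 (chr14:55578464-55578523, plus strand): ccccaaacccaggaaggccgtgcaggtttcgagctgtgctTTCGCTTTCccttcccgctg
The match lies 139 bases before the start in B2m, 35 in Ifi203 and 30 in Irgm1, where 2 matches overlap, and just past the start in the other three. In Eif2ak2 another match overlaps the one in capitals and runs past the end of the printed stretch. A match is a description of these letters and not a measured site. Of the other elements searched on both strands, the E-box CACGTG was in 13.9% of the members' windows against 12.1% of the 8669 genes, the SP1 box GGGGCGGGG in 22.6% against 26.6%, the AP-1 element TGAGTCA in 6.09% against 4.07%, and the cyclic AMP element TGACGTCA in 1.74% against 3.75%.

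Irf7, the master regulator of type I interferon genes (chr7:141262706-141266481), was at 3.54, 3.996, 4.74 and 6.81 CPM in the late WT mice, at 12.9, 14.9, 7.09, 8.18 and 10.1 with shSCR and at 10.3, 9.90, 8.59, 8.87 and 8.55 with shA4. The highest WT mouse thus came within a small margin of the lowest SCA7 mouse, although the means differed 2.08-fold. Oasl2, a relative of the oligoadenylate synthetases that sense viral RNA, was at 5.08, 6.79, 7.69 and 7.69 CPM in WT mice against 18.8, 16.6, 8.86, 9.95 and 13.01 with shSCR and 12.9, 17.8, 11.8, 9.22 and 9.18 with shA4. For both genes the spread among SCA7 mice was wide. In both, shSCR replicates 1 and 2 had high levels and shSCR replicate 3 the least of all SCA7 mice. Ifi203, a member of the interferon-inducible p200 family, was at 3.02 to 4.30 CPM in WT mice and at 4.88 to 10.4 in SCA7 mice. Ifi27 (log2 ratio 0.66) and the pro-apoptotic Xaf1 (0.65) are further interferon-induced genes of the group. It also held the RNA-activated kinase Eif2ak2, the antiviral membrane protein Ifitm3, Parp12, Sp100, the GTPase Irgm1, Nmi and Irf9, a subunit of the interferon-activated complex ISGF3.

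H2-K1, a classical MHC class I heavy chain (chr17:33996017-34000347), was at 30.4, 32.3, 30.1 and 30.6 CPM in the late WT mice, at 68.1, 49.8, 44.9, 44.2 and 44.7 with shSCR and at 53.5, 59.7, 42.6, 46.7 and 49.9 with shA4. B2m, the light chain shared by all class I molecules, was at 97.98, 108, 98.8 and 92.03 CPM in WT mice, at 189.6, 139, 127, 118 and 135 with shSCR and at 134, 151, 127, 141 and 131.3 with shA4. In both genes shSCR replicate 1 stood above the other shSCR mice. That mouse also had the most Cd74, the invariant chain of MHC class II, at 23.8 CPM against 8.89 to 14.99 in the other SCA7 mice and 9.05 to 10.9 in late WT mice, and the part of MHC class II-positive cells in the class I values was not tested. H2-Q4, a class I molecule of the Q region, had a log2 ratio of 0.88. Psme1 (0.50), which encodes a subunit of the proteasome activator PA28, and the peptide transporter subunit Tap2 (0.42) also belong to antigen processing, as does Tapbpl. Reads of H2-K1, H2-Q4, Ifi203 and Irgm1 can also fit near-identical relatives, so their split between copies is uncertain.

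All 39 interferon genes of the prepared list with at least 5 CPM had a mean above WT, 36 with TMM, and their median log2 ratio was 0.40 on library totals and 0.36 with TMM. The same was true of 68.7% of the 10986 genes on library totals and 51.6% with TMM. Of these 39 genes, 12 were members, 9 of them also with TMM. Of the MHC class I list, 6 of 16 genes were members and 14 of 16 had a mean above WT. None of 20 microglial genes was a member, but 19 had a mean above WT, 16 with TMM. Their median log2 ratio was 0.14 on library totals and 0.10 with TMM. The summed microglial level was 379 to 496 CPM with shA4, 377 to 504 with shSCR and 367 to 418 in late WT mice. The T cell and MHC class II list summed to 20.7 to 32.1, 24.1 to 49.9 and 19.8 to 25.8 CPM in the same order. The part of these cells in the members' ratios was not tested.

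Another 10 members act in innate sensing, complement or leukocyte signalling, with a median log2 ratio of 0.34, and only 4 of them met the rule with TMM. Serping1, the C1 inhibitor of the complement cascade, was at 35.5 to 42.98 CPM in SCA7 mice against 28.8 to 33.6 in WT mice. The bacterial sensor Nod1 and its kinase Ripk2 were both members, as were the Toll-like receptor adaptor Tirap, the complement regulator Cd46, Pik3cd, Srgn, Arhgdib, Gca and the ubiquitin ligase Cblb.

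Genes of blood vessels formed a group of 10 members with a median log2 ratio of 0.52, and all 10 met the rule with TMM. Vwf, the von Willebrand factor of endothelial cells (chr6:125546774-125686679), was at 23.4, 22.7, 21.5 and 19.3 CPM in the late WT mice, at 35.4, 36.6, 34.4, 40.9 and 35.5 with shSCR and at 36.3, 54.3, 32.7, 31.5 and 43.6 with shA4. The shA4 mice spread more widely than the shSCR mice, and replicate 2 was the highest of all. Cd34, a surface sialomucin of endothelium, was at 19.9, 19.8, 20.8 and 18.1 CPM in WT mice, at 28.9, 31.9, 29.2, 27.6 and 27.7 with shSCR and at 29.01, 30.5, 29.9, 28.8 and 29.7 with shA4, with little spread within any group. The endothelial mucin Emcn had a log2 ratio of 0.55, the adaptor Sh2d3c 0.57 and the guidance ligand Sema3g 0.54. Cd93, the receptors Notch4, Tie1 and Eng, and the Tie2 ligand Angpt1 completed the group. Of 35 endothelial marker genes with at least 5 CPM, 8 were members, 1 was lower in every SCA7 mouse by the mirrored rule, and 26 had a mean above WT. Their median log2 ratio was 0.20. The summed level of the list was 978 to 1044 CPM with shA4, 935 to 1035 with shSCR and 873 to 943 in late WT mice. None of 11 markers of pericytes and smooth muscle was a member, with a median log2 ratio of 0.04.

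Genes of secreted proteins, extracellular matrix and junctions numbered 17, with a median log2 ratio of 0.50, and 13 met the rule with TMM. Comp, a pentameric matrix protein of cartilage and tendon (chr8:70373558-70382066), was at 5.02, 5.79, 5.28 and 6.44 CPM in the late WT mice, at 10.6, 9.82, 9.23, 11.2 and 10.2 with shSCR and at 8.75, 8.62, 7.73, 10.01 and 10.6 with shA4. Fstl5, a secreted follistatin-like protein, was at 31.5, 36.3, 32.2 and 32.1 CPM in WT mice against 54.3, 68.4, 48.9, 70.4 and 58.4 with shSCR and 52.8, 60.2, 60.5, 54.5 and 71.3 with shA4. In both genes the lowest SCA7 mouse lay well above the highest WT mouse, by a factor of 1.20 in Comp and 1.35 in Fstl5. Sfrp4, an extracellular antagonist of Wnt ligands, was at 6.39 to 8.73 CPM in SCA7 mice against 3.06 to 4.92 in WT mice, and the immunoglobulin-domain protein Igsf10 had a log2 ratio of 0.82. Cemip (0.50), which takes part in hyaluronan breakdown, and the collagen Col19a1 (0.52) are matrix genes too. The others were the Wnt modulator Dkk3, the proteases Pappa, Adamts6 and Adamts18, Igfbp7, the lysyl hydroxylase Plod2, Dsel, Nxpe4, Pdpn, the tight junction protein Cgn, and Cp, the ferroxidase ceruloplasmin. Of the 22 genes in the list of fibroblasts, meninges and collagens, only Cemip and Serping1 were members, and the median log2 ratio of that list was -0.01.

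**Figure D2:**
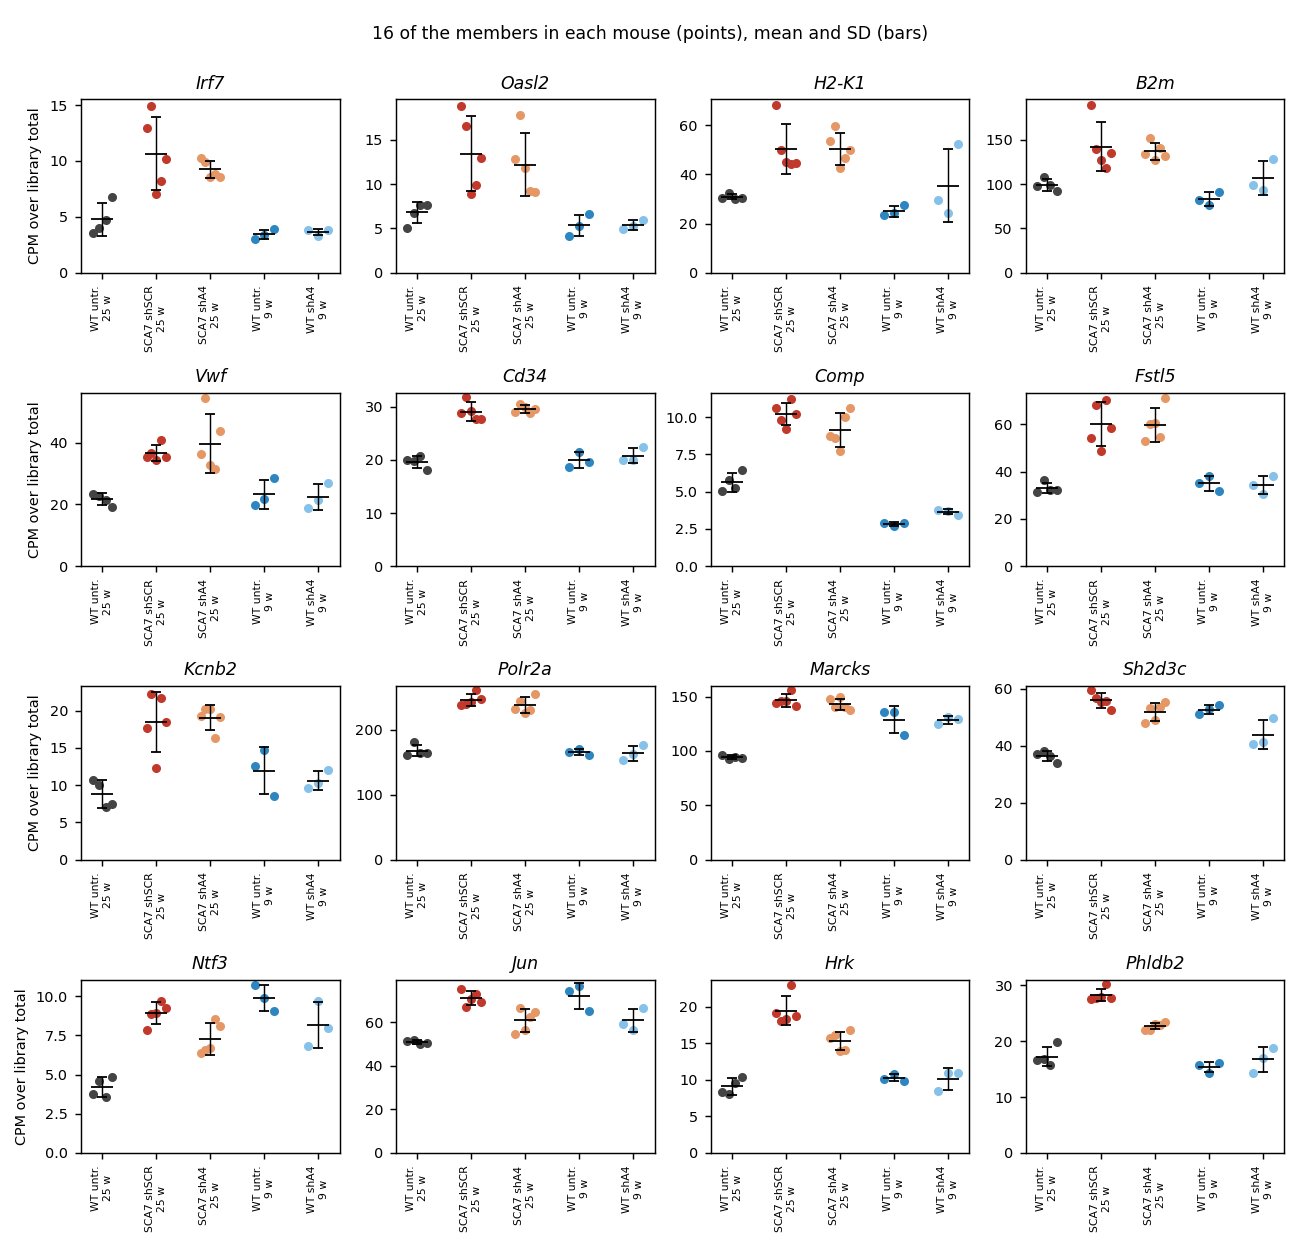
CPM over the library total of 16 members in each of the 20 mice (points), with the mean and SD of each group as bars and all axes starting at 0. Every SCA7 point lies above every late WT point, which the selection fixes. Phldb2, Hrk and Jun show the shA4 mice below the shSCR mice, and Ntf3 and Sh2d3c show early untreated WT mice above the lowest SCA7 level.

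Ion channels and transporters contributed 11 members with a median log2 ratio of 0.43. Kcnb2, which encodes the delayed rectifier Kv2.2 (chr1:15287254-15723750), had the largest ratio of all members. It was at 10.6, 10.1, 7.02 and 7.44 CPM in the late WT mice, at 17.7, 22.3, 12.3, 21.7 and 18.4 with shSCR and at 19.3, 20.3, 20.3, 16.3 and 19.2 with shA4. WT mice spread from 7.02 to 10.6, and 1 shSCR mouse, replicate 3, came nearest to them. Kcnb2 was the only member among 25 voltage-gated potassium channel genes, 6 of which were lower in every SCA7 mouse by the mirrored rule. Cacna1e, the pore of the R-type calcium channel Cav2.3, was at 227, 234, 243 and 230 CPM in WT mice, at 318, 349, 305, 391.6 and 345 with shSCR and at 301, 331, 319, 306 and 337 with shA4. Together with Cacng4 (0.41), an AMPA receptor regulatory subunit of the same protein family as calcium channel gamma subunits, it was a member among 27 calcium channel genes, of which 3 were lower by the mirrored rule. The kainate receptor subunit Grik2 (0.32) was the only member among 25 glutamate receptor genes, 4 of which were lower. Among solute carriers, 4 of 200 were members. They were the choline transporter-like Slc44a5 (0.65), the zinc transporter Slc39a8 (0.48), the sodium-proton exchanger Slc9a9 (0.43) and the sodium-calcium exchanger Slc8a3 (0.41). The cation channel Trpv2, the lysosomal channel Tpcn2 and the transporter Abca8b completed the group.

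Neuronal genes of synapses, neurotrophin signalling, axon guidance and receptors numbered 17, with a median log2 ratio of 0.42. Ntf3, the gene of neurotrophin-3 (chr6:126101412-126166910), was at 3.77, 4.59, 3.59 and 4.86 CPM in the late WT mice, at 7.82, 8.88, 8.91, 9.72 and 9.27 with shSCR and at 6.37, 6.60, 6.70, 8.55 and 8.12 with shA4. Ngfr, the p75 neurotrophin receptor, was at 9.36, 8.99, 8.89 and 9.82 CPM in WT mice, at 13.5, 11.8, 13.1, 12.2 and 13.1 with shSCR and at 11.9, 12.4, 12.3, 11.2 and 13.96 with shA4. These were the only members among 24 neurotrophic factor and receptor genes. The synaptic vesicle protein Synpr had a log2 ratio of 0.55 and the presynaptic active zone protein Rims3 of 0.39, out of 67 vesicle release genes. The calcium-binding Necab1 (0.67) and the dendritic membrane protein Sez6 (0.42) had small spreads, with 173.4 to 200.3 CPM of Sez6 in SCA7 mice against 139 to 145 in WT mice. In the guidance and adhesion list, 4 of 113 genes were members, namely the ligands Sema3a (0.46) and Sema3g, the semaphorin receptor Plxna2 (0.35) and the synapse organiser Lrrtm2 (0.34). The group also held Gprin3, Lrp1b, Nyap2, Brinp3, Sstr3, Gpr137c and Gpr85.

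The cytoskeleton and its regulators gave 11 members with a median log2 ratio of 0.40. Marcks, a protein kinase C substrate that binds actin and membranes, was at 96.7, 92.2, 94.6 and 93.5 CPM in the late WT mice, at 144, 146, 146, 156 and 141 with shSCR and at 148, 140.3, 149, 140.1 and 138 with shA4. It had the widest gap of all members, with the lowest SCA7 mouse 1.43 times the highest WT mouse. Phldb2, which anchors microtubules at the cell cortex, and the focal adhesion protein Tns3 had log2 ratios of 0.56 and 0.33. The other members here were Iqgap2, Anxa2, Arpc1b, Afap1, Tagln2, Tmsb10, Tgfb1i1 and Capn5. Marcks was also on a list of genes of developing neurons, where 3 of 26 were members. The other two were the transcription factors Sox4, at 12.2 to 15.1 CPM in SCA7 mice against 8.15 to 9.49 in WT mice, and Nfib, at 174 to 188 against 129.6 to 149.

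Transcription and chromatin accounted for 17 members with a median log2 ratio of 0.38. Polr2a, the largest subunit of RNA polymerase II (chr11:69733997-69758637), was at 161, 180.6, 164.5 and 163.95 CPM in the late WT mice, at 237, 239, 242, 261 and 247 with shSCR and at 232, 244, 225, 230 and 255 with shA4. It was the only member among 12 polymerase II subunit genes, whose median log2 ratio was 0.10. None of 21 SAGA complex genes was a member, with a median of 0.08. Cbx2 (0.50) and Cbx8 (0.52), chromodomain subunits of Polycomb repressive complex 1, were among the 3 members of 92 Polycomb and chromatin remodelling genes. Jun, the AP-1 subunit induced by stress and axon injury, was at 51.2, 52.0, 49.8 and 50.4 CPM in WT mice, at 75.1, 67.1, 70.4, 72.9 and 69.0 with shSCR and at 54.6, 66.2, 56.2, 62.3 and 64.5 with shA4. It was the only member among 16 immediate early genes, whose median log2 ratio was -0.22. Among the zinc finger genes, Zfp512b (0.35), Zfp945 (0.34), Zfp811 (0.33) and Zfp707 (0.32) were members, 4 of 340, and none of them met the rule with TMM. The oxidative stress factor Nfe2l2 (0.32) and the histone variant H2afz (0.34) did not meet it with TMM either. Creb5, Klf11, Sox8 and Tigd3 completed the group.

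RNA processing, translation and DNA repair gave 10 members with a median log2 ratio of 0.35. Rsrp1, an arginine- and serine-rich protein, was at 315 to 406 CPM in SCA7 mice against 273 to 305 in WT mice. Srsf12 (0.37) was 1 of 97 splicing and RNA-binding genes, and Rpl15 (0.35) 1 of 49 ribosomal protein genes, which have many processed pseudogenes. Cmtr2, Carhsp1, Usb1, Fancg, Ralyl, Mrnip and Ranbp17 were the others.

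Genes of cell death and protein quality numbered 5. Hrk, a pro-apoptotic BH3-only protein of neurons (chr5:118164648-118189478), was at 8.30, 8.12, 9.56 and 10.5 CPM in the late WT mice, at 19.2, 18.1, 18.4, 22.99 and 18.7 with shSCR and at 15.7, 16.1, 13.9, 14.1 and 16.8 with shA4. Every shA4 mouse was below every shSCR mouse, while the selection fixed that both arms lay above the WT mice. Of 32 genes of cell death and p53 targets 2 were members, Hrk among them, and their median log2 ratio was 0.08. Hspa2 (0.37) was the only member among 69 heat shock genes, and the kinase Map3k5 and the deubiquitinase Otud1 were also members.

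The remaining members were 9 genes of the cell cycle and signalling enzymes (Ccnd1, Haus4, Pde1c, Pde3a, Plcd1, Dusp16, Pla2g4e, Nkd1 and Plekhf2), 9 of metabolism and glycosylation (Asl, Accs, Cdo1, Aloxe3, Enpp6, B3galt2, Galnt4, Man2a1 and Eogt), 2 of cilia, Lca5 among them, and 10 of other or little known function (Ankrd44, Ankrd50, Lhfpl2, Vwa7, Tmem150a, Xkr4, 1810010H24Rik, Lysmd3, Tmem131l and Fam102b). Only 2 of the 9 metabolic genes met the rule with TMM. Enpp6, a choline-phosphate esterase of newly forming oligodendrocytes (0.32), was the only member among 24 oligodendrocyte genes, of which 7 were lower in every SCA7 mouse by the mirrored rule. No member was found among 18 granule cell genes, 19 genes of Bergmann glia and astrocytes, 12 choroid plexus genes, 82 nuclear genes of the respiratory chain or 19 genes of the unfolded protein response.

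Atxn7, the gene of the knock-in, lies on chromosome 14. Of 19 genes with at least 5 CPM within 5 Mb of it, Rpl15 and Synpr were members. Within 20 Mb there were 3 of 110, with Sema3g. By chromosome the share ran from 0.256% on chromosome 19 to 2.84% on chromosome 6, where 16 of 564 genes were members. Some members were close neighbours. On chromosome 11 Cbx2 and Cbx8 start 13343 bases apart. The starts of Psme1 and Irf9 lie 25448 bases apart on chromosome 14. Eng and Sh2d3c start 74460 bases apart on chromosome 2, and Cd34 and Cd46 98007 bases apart on chromosome 1. The members had a median transcript length of 1986 bases against 1522 over the 10986 genes, each being the median over a gene's transcripts. Gene models overlap others in 85 members, 38 of them on the same strand. The sources used here do not say whether reads were counted by strand, so reads of overlapping genes such as Irf7 and Phrf1 or Ifi203 and Mndal may not have been told apart.

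The comparison of shA4 with shSCR in SCA7 mice asks whether the levels of these genes differed between the arms. The selection used all 10 mice as 1 group and not the difference between the arms. It did require every shA4 mouse to lie above every late WT mouse. A gene that shA4 returned to the WT level could therefore not be a member, and the comparison does not cover such genes. With the shSCR mice alone 219 genes met the rule, of which 145 were members. With the shA4 mice alone it was 186, of which 128 were members. Among the 156 members, 98 had a lower and 58 a higher fitted level with shA4, with a median log2 fold change of -0.03 against 0.00 over the 14862 genes tested in edgeR's quasi-likelihood fit. No member passed an adjusted p of 0.05, and neither did any of the 14862 genes (0% called at a fold above 1.3). At an unadjusted p under 0.05, 21 members were lower and 4 were higher with shA4. Over all genes tested, 592 (3.98%) were lower and 630 (4.24%) higher at this level. Among the 98 members that also meet the rule with TMM, 9 were lower and 4 higher. In 7 members every shA4 mouse was below every shSCR mouse, against 0.983% of the 10986 genes, and in none was every shA4 mouse above, against 0.71%. Among the 7 were Dusp16, Hrk, Jun, Lhfpl2, Phldb2 and Trpv2.

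Phldb2 (chr16:45746243-45953598) had the smallest p of the members, with 22.1, 22.1, 23.1, 22.9 and 23.4 CPM with shA4 against 27.5, 27.7, 27.9, 30.2 and 27.8 with shSCR, and 16.7, 16.9, 15.7 and 19.8 in late WT mice. Its log2 fold change was -0.31 ± 0.05 (SE, edgeR adjusted p = 0.194). Trpv2, a cation channel, was at 20.9, 22.3, 21.9, 23.01 and 22.6 CPM with shA4 and at 25.1, 25.1, 25.04, 26.2 and 25.4 with shSCR, against 19.4, 18.8, 19.4 and 19.3 in late WT mice, a log2 fold change of -0.19 ± 0.04 (edgeR adjusted p = 0.301). In both genes every shA4 mouse was below every shSCR mouse, while the selection fixed that both arms lay above the WT mice. The corresponding values were -0.22 ± 0.05 in Jun (adjusted p = 0.325) and -0.34 ± 0.08 in Hrk (0.341). DESeq2 gave 24 genes (0.132% of 18234) an adjusted p under 0.05, and 5 of these (0.0274%) also had a fold above 1.3. With no limit on the fold, an alternative chosen after seeing the data, 5 members were among the 24, including Phldb2, Trpv2, Jun and Hrk with DESeq2 adjusted p of 0.00031, 0.0197, 0.0319 and 0.0382. No member reached a fold of 1.3 there with an adjusted p under 0.05. With edgeR on the 10 SCA7 mice alone, Phldb2 had an adjusted p of 0.0162. None of the 18 members of the interferon and antigen presentation group had an unadjusted p under 0.05 between the arms, although 15 were lower with shA4. Without shSCR replicate 1, the mouse with the most Cd74, the log2 fold change of H2-K1 moved from 0.01 ± 0.11 to 0.14 ± 0.07 and that of B2m from -0.05 ± 0.09 to 0.08 ± 0.06. That of H2-Q4 was 0.27 ± 0.12 without this mouse (edgeR unadjusted p = 0.0409, adjusted p = 0.596). Of 68 interferon genes tested, 2 were higher and 3 lower at an unadjusted p under 0.05, and none passed the adjusted test in edgeR.

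**Figure D3:**
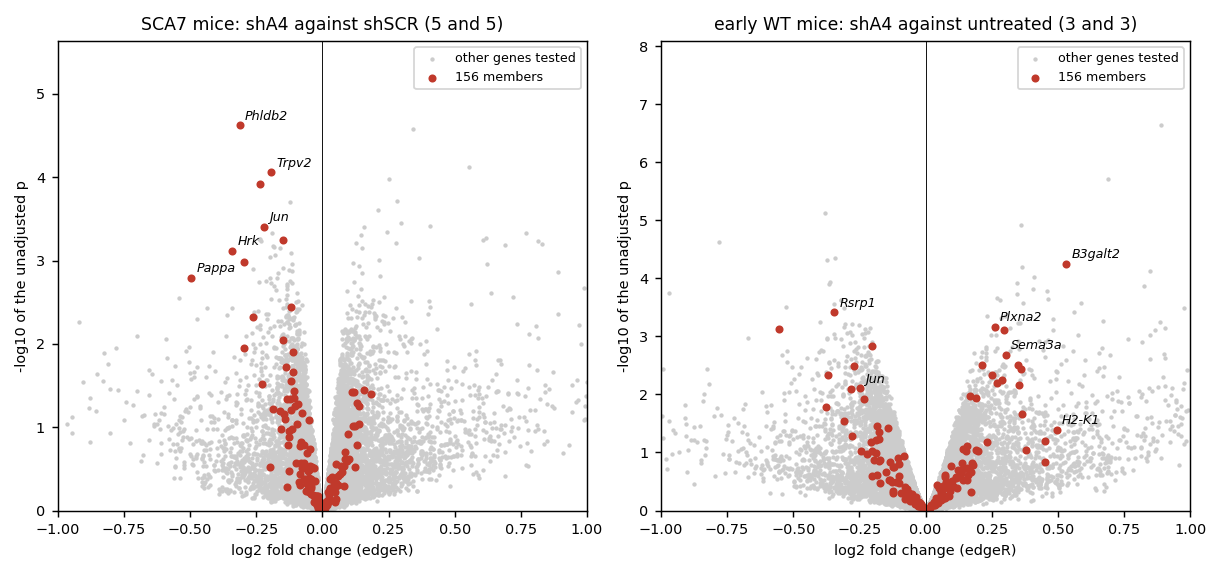
Log2 fold change and -log10 of the unadjusted p from edgeR for shA4 against shSCR in SCA7 mice (left, 5 and 5) and for shA4 against untreated in early WT mice (right, 3 and 3). Red points are the 156 members and grey points the other genes tested, with those beyond a log2 change of 1 not drawn. On the left 21 of the 25 members with a p under 0.05 lie below 0, and on the right 13 of 28 do.

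**Figure D4:**
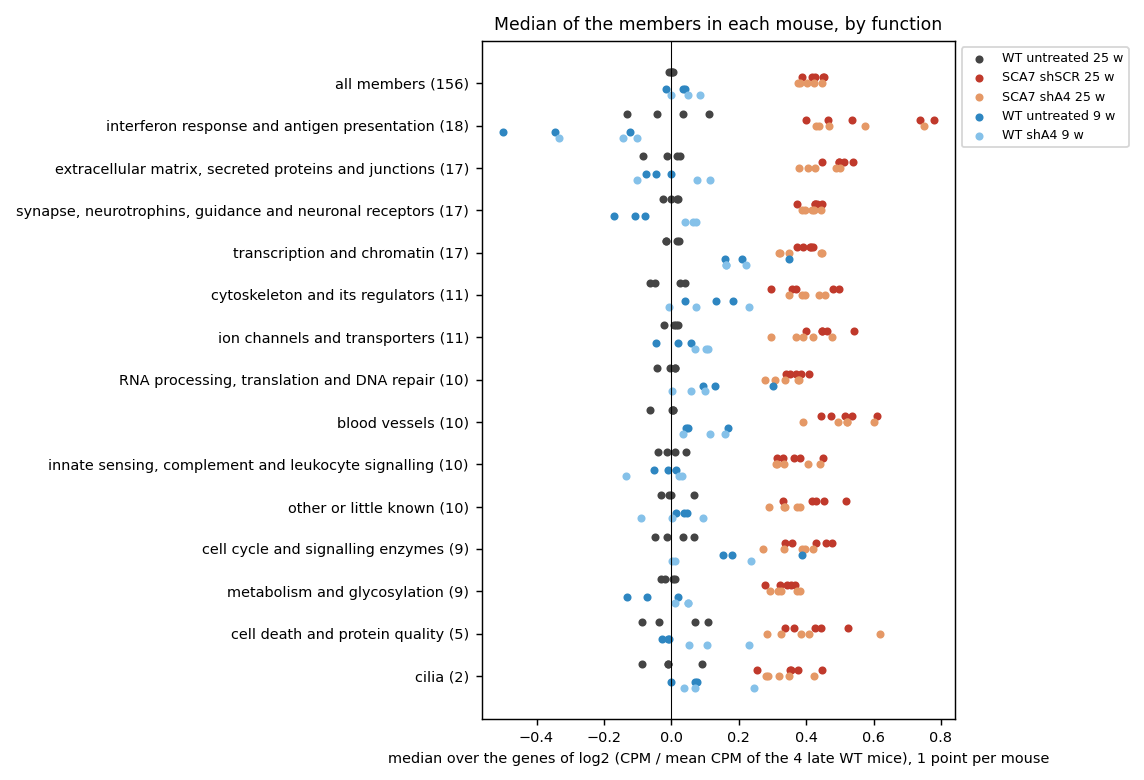
Median over the members of each functional group (number in brackets) of log2 of the CPM over the mean CPM of the 4 late WT mice, with 1 point per mouse. Over all 156 genes the SCA7 mice lie at 0.37 to 0.45 and the early WT mice at -0.02 to 0.09. Interferon and antigen presentation genes reach their lowest medians in early WT mice.

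The early mice show what level these genes have in the cerebellum of other, younger WT mice. Age and other differences between the early and late sets of mice cannot be told apart. Per mouse, the median of log2 CPM over the late WT mean was 0.37 to 0.45 with shA4 and 0.39 to 0.45 with shSCR in SCA7 mice, against -0.02 to 0.04 in early untreated and 0.00 to 0.09 in early shA4 WT mice. The late WT levels chose the members, so the early levels are given without a test. In 92 of the 156 members (59.0%) all 3 early untreated mice were below the lowest SCA7 mouse, as in 22.5% of the 10986 genes, a share the selection on high SCA7 levels raises among the members. All 3 were above the highest late WT mouse in 40 members, against 19% of the 10986 genes, and below the lowest late WT mouse in 25, against 19.7%. In 19 members (12.2%) all 3 were at or above the lowest SCA7 mouse, as in 51.9% of the 10986 genes, a share the same selection lowers. They included Adamts18, Arpc1b, Cbx2, Ccnd1, Enpp6, H2afz, Igfbp7, Jun, Mrnip, Ntf3, Plcd1, Rims3, Sh2d3c, Sstr3, Usb1, Vwa7 and Zfp707.

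Ntf3 was at 10.7, 9.88 and 9.06 CPM in the early untreated mice, above every shA4 mouse and within or above the shSCR range, while late WT mice were at 3.59 to 4.86. Adamts18, a matrix protease, was at 31.9, 38.1 and 36.1 CPM early against 23.2 to 37.2 in SCA7 mice and 18.1 to 22.9 in late WT mice. Both genes were thus higher in the early untreated than in the late WT mice. Jun was at 74.3, 76.5 and 65.02 CPM early against 54.6 to 75.1 in SCA7 mice. Marcks was at 136, 136 and 115 CPM early, below the SCA7 range and above the late WT range. The medians of the 17 transcription and chromatin genes were 0.16 to 0.35 in these mice.

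Of the 18 antigen presentation and interferon members, 7 were below every late WT mouse in all 3 early untreated mice, against 19.7% of the 10986 genes. These were B2m, H2-K1, Ifi203, Irf9, Irgm1, Tap2 and Tapbpl. The medians of these 18 genes were -0.50 to -0.12 in the early untreated mice, against -0.13 to 0.11 in late WT mice, so that these groups overlapped, and 0.40 to 0.78 in SCA7 mice. Ifi203 was at 2.04, 1.77 and 1.71 CPM early, H2-K1 at 23.4, 24.1 and 27.6 and B2m at 82.3, 76.2 and 91.4, in each case below every late WT mouse. Comp was at 2.93, 2.68 and 2.87 CPM, also below the late WT mice. Hrk, at 10.2, 10.9 and 9.92 CPM, and Polr2a, at 165.6, 170.4 and 160, were near the late WT level and below every SCA7 mouse. The vessel genes Vwf (19.7, 21.6 and 28.5 CPM) and Cd34 (18.7, 21.6 and 19.5) were likewise below every SCA7 mouse, whereas Sh2d3c, at 51.2, 52.8 and 54.4, was within the SCA7 range. In all 3 early untreated mice Sh2d3c, Cd93 and Eng were above every late WT mouse, and Emcn was below. The medians of the 10 vessel genes were 0.04 to 0.17 in these mice and 0.39 to 0.61 in SCA7 mice. The endothelial marker list summed to 974 to 982 CPM in these mice. That is above the late WT mice (873 to 943) and within the SCA7 range (935 to 1044).

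**Figure D5:**
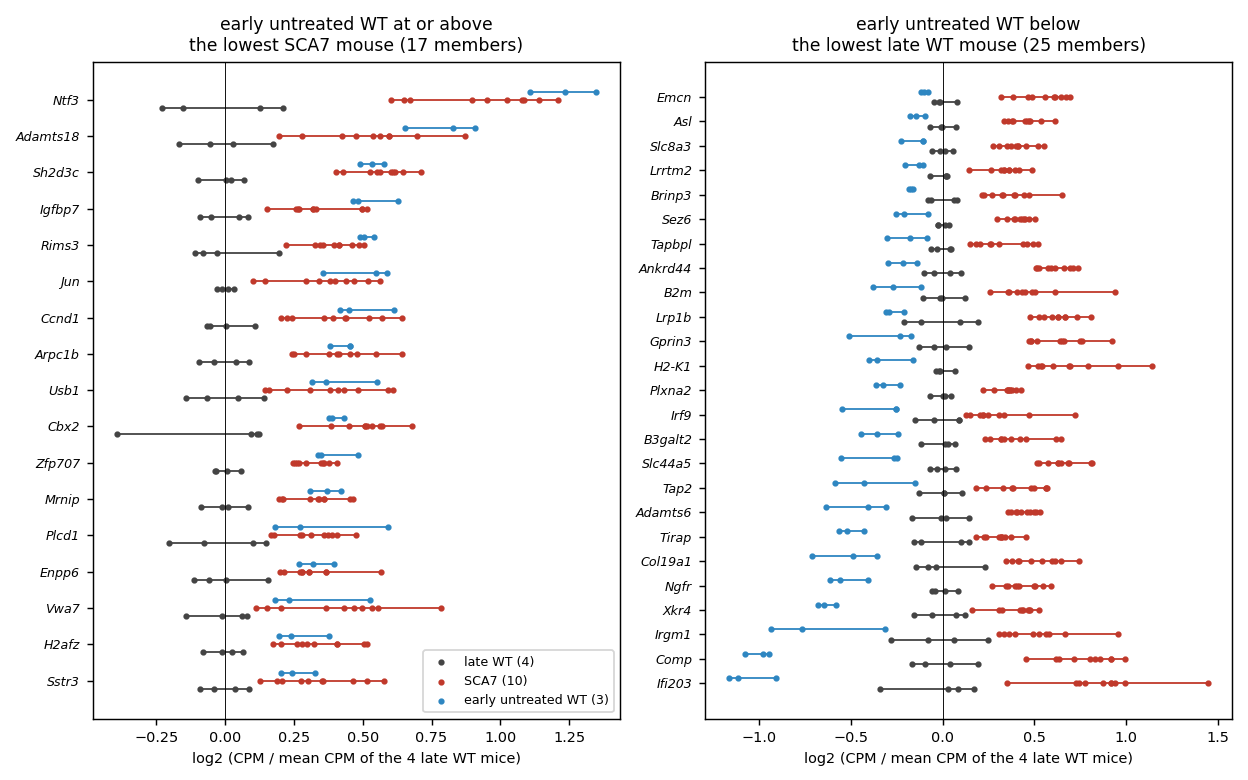
Log2 of the CPM over the mean CPM of the 4 late WT mice (x axis) for 17 of the 19 members whose early untreated WT mice were all at or above the lowest SCA7 mouse (left) and the 25 members whose early untreated mice were all below the lowest late WT mouse (right). Points are mice and lines the range of each group. Ntf3 and Adamts18 lie farthest to the right among the early mice on the left, and Ifi203 and Comp farthest to the left on the right.

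The comparison of shA4 with untreated WT mice at the early time asks whether the vector by itself moved these genes in the absence of the SCA7 allele. Among the members, 79 were higher and 77 lower with shA4, with a median log2 fold change of 0.00 against 0.00 over the 14733 genes tested. In edgeR 8 genes (0.0543%) were called at an adjusted p under 0.05 and a fold above 1.3, and none was a member. At an unadjusted p under 0.05, 15 members were higher and 13 lower, against 5.17% and 5.96% of all genes tested. Every shA4 mouse was above every untreated mouse in 20 members, against 7.69% of the 10986 genes, and below in 11, against 8.28%. With DESeq2, 7 members had an adjusted p under 0.05, and 2 of them, B3galt2 and Adamts18, also a fold above 1.3. Over the 17738 genes DESeq2 tested, 123 (0.693%) had such an adjusted p and 50 (0.282%) were called.

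B3galt2, a galactosyltransferase of glycan synthesis (chr1:143640664-143654614), was at 22.8, 22.2 and 19.97 CPM with shA4 and at 16.03, 14.8 and 13.96 in untreated early mice. All shA4 mice were above all untreated mice, with a log2 fold change of 0.53 ± 0.08 (SE, edgeR adjusted p = 0.0547), against a late WT range of 17.5 to 19.9 CPM. Without shA4 replicate 3 the edgeR adjusted p was 0.0291, in a fit that called 43 genes against 8 in the main fit. Rsrp1 was at 261, 274 and 285 CPM with shA4 and at 304, 360 and 374 untreated, a log2 fold change of -0.34 ± 0.07 (adjusted p = 0.117). Without untreated replicate 1 it was called at an edgeR adjusted p of 0.0462, as 1 of 9 genes in that fit. Plxna2 was at 82.1, 89.5 and 80.3 CPM with shA4 and at 67.3, 73.5 and 69.1 untreated, a log2 fold change of 0.26 ± 0.06 (adjusted p = 0.158). For Sema3a, a semaphorin ligand, it was 0.30 ± 0.08 (adjusted p = 0.220). In the neuronal group (synapse, neurotrophin, guidance and receptor genes) 7 of 17 were higher and 1 lower at an unadjusted p under 0.05. Over all genes tested 5.17% were higher and 5.96% lower at this level, and no gene of the group passed the adjusted test in edgeR. It had the most higher genes at this level of all the functional groups, which were made by hand once the members were known. Its median was 0.04 to 0.07 in the shA4 mice and -0.17 to -0.08 in the untreated mice. Jun was at 59.3, 56.3 and 66.6 CPM with shA4 against 74.3, 76.5 and 65.02 untreated, overlapping groups with a log2 fold change of -0.25 ± 0.08 that did not pass the adjusted test in edgeR (adjusted p = 0.309).

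Of the interferon and antigen presentation members, 14 of 18 had a higher fitted level with shA4 in early WT mice, and H2-K1 and B2m had an unadjusted p under 0.05. H2-K1 was at 29.5, 24.4 and 52.4 CPM with shA4 and at 23.4, 24.1 and 27.6 untreated, and B2m at 98.6, 92.9 and 129 and 82.3, 76.2 and 91.4. The log2 fold change was 0.49 ± 0.21 in H2-K1 (adjusted p = 0.421) and 0.35 ± 0.11 in B2m (0.294). Replicate 3 with shA4 was the highest in both, and it also had 56.0 CPM of Cd74 against 10.6 and 11.5 in the other shA4 mice and 5.60 to 9.47 CPM in untreated mice. The T cell and MHC class II list summed to 24.6 to 126.2 CPM with shA4 and to 14.1 to 20.02 in untreated mice. Without this mouse the log2 fold change was 0.11 ± 0.10 in H2-K1 and 0.20 ± 0.07 in B2m, and in H2-Q4 it turned from 0.45 ± 0.29 to -0.08 ± 0.16. Irf7 was at 3.79, 3.32 and 3.86 CPM with shA4 and at 3.01, 3.39 and 3.88 untreated, so the groups overlapped and its log2 fold change of 0.09 ± 0.15 was smaller than its SE. Oasl2 did not differ beyond the spread either, with 4.91, 5.23 and 5.99 against 4.20, 5.31 and 6.60 CPM. Hrk, which separated the arms in SCA7 mice, had a log2 fold change of -0.03 ± 0.11 here, smaller than its SE. These early mice carry no shSCR vector, so an effect of the AAV and one of the shA4 RNA cannot be told apart.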

How the data were processed

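Cerebellar RNA of 20 mice was sequenced, 1 library per mouse. The authors deposited raw gene counts, made with stranded libraries, STAR on mm10 and HTSeq with an Ensembl 102 annotation. The submitters' processing notes name bcl2fastq 2.20.0.422, cutadapt 1.10, Bowtie2 2.2.8, STAR 2.5.3a and HTSeq 0.6.1p1. The strand option of the counting is not given in the sources used here. All columns were mapped to samples by their titles.

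From these counts, CPM were taken over the library total. Gene types and positions came from GENCODE vM21, which matched 55141 of 55401 gene IDs, 21897 of them protein-coding. The fits used edgeR 4.0.16 (quasi-likelihood F test, limma 3.58.1, TMM) in R 4.3.3, on the genes kept by filterByExpr at its count minimum of 10 and total of 15. One fit held the 14 late libraries by group and another the 6 early ones. A gene was called at a Benjamini-Hochberg adjusted p under 0.05 and a fold above 1.3. DESeq2 1.42.0, other scalings, no filter, a block and left-out mice were alternatives. All 156 members passed the filter in both fits. The code was tested on simulated counts first.

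The members and gene lists were chosen with earlier results of these data known. The lists were written after the study's own table of changed genes had been read, and the grouping by function was made by hand once the members were known, so neither is independent evidence. Genes were named with values by rule, 70 in all: the 12 largest ratios, the 8 highest mean CPM, the 5 widest gaps, up to 5 members of each list, those within 20 Mb of Atxn7, the 3 smallest p of each treatment comparison, and the 3 on each side of the ratio threshold. Others with values, such as Jun and Hrk between the arms and Adamts18 in early mice, Cd74, Dusp16 and Lhfpl2, were singled out once their values were seen, and the rest are named without values, except a few members that are counted but not reported here.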

Additional observations from a re-analysis of the deposited data

Results flagged for a closer look

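Single mice stood apart from the other mice of their group by Dixon's test in 14 of 210 combinations of a named gene and a late group. Chance alone gives about 1 in 20, not far below this share, so the mice below are listed as a description. B2m and H2-K1 were far higher in shSCR replicate 1, at 189.6 and 68.1 CPM, than in the other shSCR mice, at 118 to 139 and 44.2 to 49.8 CPM. The same mouse had the least Cbx2 of its arm, 5.95 CPM against 7.04 to 7.34. ShSCR replicate 4 had the most Hrk, 22.99 CPM against 18.1 to 19.2, and the most Phldb2, 30.2 CPM against 27.5 to 27.9. Serping1 was lowest in shSCR replicate 5, at 35.5 CPM against 40.8 to 42.1.

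Among the shA4 mice, Kcnb2 was low in replicate 4 (16.3 CPM against 19.2 to 20.3), Psme1 was high in replicate 1 (23.1 CPM against 19.2 to 19.9) and Nfe2l2 was high in replicate 2 (38.2 CPM against 28.6 to 30.6). Without that mouse Nfe2l2 did not meet the rule.

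Among the late WT mice, replicate 2 stood apart in 4 genes. Fstl5 was high in it, at 36.3 CPM against 31.5 to 32.2, while Lrrtm2 was low at 40.2 CPM against 42.6 to 42.8, Cbx2 was low at 3.77 CPM against 5.28 to 5.38 and Trpv2 was low at 18.8 CPM against 19.3 to 19.4. Trpv2 did not meet the rule without it. Nfib was low in WT replicate 1, at 129.6 CPM against 146 to 149.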

How the results depend on the processing

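Instead of 156 genes, 98 met the rule with TMM library sizes, 97 with DESeq2 size factors and 90 at a ratio of at least 1.3-fold, and 154 to 224 when single late mice were left out. Within 20 Mb of Atxn7 there were 3 members, 6 at a mean of at least 1 CPM, and 3 to 5 without single mice (5 without WT replicate 4). The members in the interferon and MHC class I lists fell from 18 to 11 at a mean of at least 10 CPM.

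For shA4 against shSCR, 0 members were called in edgeR under any setting and in DESeq2, and 5 passed in DESeq2 with no fold limit. For shA4 against untreated early WT mice, where edgeR called 0, DESeq2 called 2 (of 50 genes) and 7 without the fold limit (of 123), and edgeR without the filter called 1 (of 26). Leaving out single early mice gave 0 to 1, namely Rsrp1 without untreated replicate 1 (of 9 genes) and B3galt2 without shA4 replicate 3 (of 43 genes). The median log2 fold change then ran from -0.0147 without shA4 replicate 3 to 0.0381 without shA4 replicate 1. For single genes, 98 values kept their direction and side of the threshold, 15 came to pass it and none turned. Counts with no fold limit in DESeq2 and over the 98 genes of the TMM rule were added after seeing the data. The causes were not tested.

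The labels name no pairs, and same-numbered mice showed little shared deviation from their group means. Correlations of these deviations ran from -0.226 to 0.0366 in the late and from -0.0868 to 0.0816 in the early groups. Other links between mice were not tested. With a replicate block, 0 members were called late and 2, B3galt2 and Adamts18, early (of 37 genes).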
